A study of Mus musculus with 123 samples.

Results

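Basement membrane components, the matrix proteins counted with them and their integrin receptors were followed through preimplantation development in mouse embryos that lacked Oct4 (gene Pou5f1) or Sox2. The genes were chosen by symbol among the protein-coding rows of the UMI table: laminin chains (Lama, Lamb and Lamc), type IV collagen chains (Col4a), integrin chains (Itga and Itgb), Nid1, Nid2, Sparc, Fn1, Hspg2 and Tinagl1. Of the 29022 genes in the table, 50 matched, and 32 of these had at least 1 UMI (unique molecular identifier, a tag that marks 1 captured RNA molecule) in at least 0.5 of the embryos of a stage. The other 18 were Col4a3, Col4a4, Col4a5, Itga4, Itga8, Itga9, Itga10, Itgad, Itgal, Itgam, Itgb1bp2, Itgb2, Itgb3, Itgb6, Itgb8, Lama2, Lamb3 and Lamc3, with group means of at most 2.28 CPM (UMI counts scaled to the total of the library). Itgb8, Itgam and Col4a4 had 0 UMIs in every embryo, which at this depth does not show that they are absent. The rest were counted in some embryos, and Itgal, with the highest of these group means, had 15 UMIs in 6 of 8 Sox2-KO late ICMs. Col4a3bp, Itgb1bp1 and Itgb3bp matched only through their symbols. They encode a ceramide transfer protein, a cytoplasmic partner of integrin β1 and a kinetochore protein, and are described apart from the matrix genes.

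Each library came from a single B6C3F1 embryo or a single isolated inner cell mass (ICM), so all groups are bulk measurements of whole morulae or of ICMs, in which fewer cells of a type and less RNA per cell cannot be told apart. Oct4 Ctrl and Oct4-KO embryos came from mothers in which the floxed Oct4 allele had been deleted in the oocyte by Zp3-Cre, so both groups lacked the maternal product: the 24 Ctrl embryos had inherited 1 intact paternal allele and the 24 KO embryos an mKO2-labelled null allele. Sox2 Ctrl and Sox2-KO embryos, 24 of each, were made in the same way with a floxed Sox2 allele and an EGFP-labelled null allele. KO embryos were recognised by their fluorescence. The 27 MWT embryos (20 of the Oct4 line and 7 of the Sox2 line) came from floxed mothers without deletion and mix embryos with the labelled null allele and embryos with the wild-type paternal allele, which the labels do not separate. Morulae were taken whole at E2.75. For the ICMs, embryos were cultured from E2.5 in medium with the MEK inhibitor PD0325901 at 1 μM, and immunosurgery removed the trophectoderm at E3.75 (early ICM) or E4.5 (late ICM). Culture, inhibitor and isolation therefore cannot be told apart from stage between morula and ICM. The titles of the MWT ICMs of the Oct4 line name a later stage than their tissue labels (E2.75 for early and E3.75 for late ICM), and the title was used. The labels give the inhibitor for all ICM groups except the Oct4 MWT early ICMs, for which they name no treatment. Each of the 12 groups of Ctrl and KO embryos held 8 embryos, and the 4 MWT groups held 5 to 8.

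A basement membrane is a thin sheet of matrix on which epithelial cells rest. Laminins, trimers of an α, a β and a γ chain, assemble first on the cell surface. Collagen IV forms a second network, and nidogens and the proteoglycan perlecan (Hspg2) connect the networks. Integrins, αβ pairs in the plasma membrane, bind laminin, collagen or fibronectin outside the cell and the actin cytoskeleton inside it. In the blastocyst the primitive endoderm, the ICM derivative that faces the cavity, is known for secreting laminin-111 (chains Lama1, Lamb1 and Lamc1), collagen IV and Sparc, and the membrane it lays down separates it from the epiblast.

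Embryos held 525755 to 1344035 UMIs, so 1 CPM corresponded to about 1 molecule, and all levels below are CPM scaled by TMM. Pou5f1 was at 0.43, 1.03 and 0.16 CPM on average in Oct4-KO morulae, early and late ICMs, against 21.2, 77.8 and 43.8 CPM in Ctrl, and Sox2 differed between Sox2-KO and Ctrl embryos by -2.97, -2.12 and -3.35 on the log2 scale, so the labels held. Some late ICMs stood apart by a marker that is not one of the genes followed here: in 6 of the 32 Ctrl and KO late ICMs at least 5 UMIs of Sox7, a transcription factor of primitive endoderm, were counted. They were Oct4 Ctrl embryos 1-9 (17 UMIs) and 2-9 (6 UMIs), Sox2 Ctrl embryos 2-1 (6 UMIs), 2-4 (21 UMIs) and 2-6 (48 UMIs) and Sox2-KO embryo 2-6 (9 UMIs), and no Oct4-KO or MWT late ICM reached 5 UMIs. This division was set by Sox7 alone. Foxa2, another primitive endoderm factor, went with it, at 2 to 18 UMIs in each of the 6 embryos and at most 2 UMIs in any other late ICM. Other markers did not separate the same embryos. Sox17 and Gata4 were at 134 and 50.7 CPM in Sox2-KO embryo 1-6, with 2 Sox7 UMIs, and at 139 and 52.6 CPM in embryo 2-6 of the same group, with 9. In Sox2 Ctrl embryo 2-3, with 0 Sox7 UMIs, Sox17 and Pdgfra were at 157 and 91.1 CPM, against 54.6 and 41.5 CPM in embryo 2-1, with 6. Counts of genes called in late ICMs of Ctrl and KO embryos, and the values of most genes named there, are also given without the 6 embryos, a choice made after the data were seen. Labels of Ctrl and KO late ICMs fall into sets 1- and 2-, and all of the 6 embryos but Oct4 Ctrl embryo 1-9 are in set 2-. In Sox2 Ctrl late ICMs Pdgfra was higher in every embryo of set 2- than in any of set 1-, while in Sox2-KO the sets overlapped. Leaving out the 6 embryos thus also changed the share of each label set. The part of the label set in the results without them was not tested.

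Promoter sequence is shown for 4 genes called in Oct4-KO late ICMs. These are Tinagl1, Itga1 and Itgb5, which were higher, and Lamb1, which was lower. The bases lie directly upstream of the start of the gene as the files give it (RefSeq sequence, GRCm38.p6, the patched mm10 build), 5′ to 3′ on the gene's strand. The Lamb1 window is shorter because its RefSeq start lies inside the gene as the files give it. Capitals mark GC boxes (GGGCGG) and CCAAT boxes (CCAAT) on either strand.
Tinagl1, chr4:130175123-130175372, minus strand: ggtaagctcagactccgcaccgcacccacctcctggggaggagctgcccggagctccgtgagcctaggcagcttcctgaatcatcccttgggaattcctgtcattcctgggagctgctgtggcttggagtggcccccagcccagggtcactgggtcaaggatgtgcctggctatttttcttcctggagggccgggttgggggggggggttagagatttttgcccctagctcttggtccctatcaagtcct
Itga1, chr13:115101965-115102214, minus strand: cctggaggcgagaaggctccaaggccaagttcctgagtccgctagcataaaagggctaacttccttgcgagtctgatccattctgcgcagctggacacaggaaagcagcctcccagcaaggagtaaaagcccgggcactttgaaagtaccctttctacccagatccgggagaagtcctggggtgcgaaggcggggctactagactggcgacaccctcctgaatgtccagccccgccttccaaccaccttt
Itgb5, chr16:33829415-33829664, plus strand: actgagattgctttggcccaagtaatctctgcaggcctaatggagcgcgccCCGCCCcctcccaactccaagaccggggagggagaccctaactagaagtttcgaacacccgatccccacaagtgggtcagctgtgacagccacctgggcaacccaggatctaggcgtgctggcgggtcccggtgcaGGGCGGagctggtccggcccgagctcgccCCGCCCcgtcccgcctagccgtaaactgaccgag
Lamb1, chr12:31265043-31265233, plus strand: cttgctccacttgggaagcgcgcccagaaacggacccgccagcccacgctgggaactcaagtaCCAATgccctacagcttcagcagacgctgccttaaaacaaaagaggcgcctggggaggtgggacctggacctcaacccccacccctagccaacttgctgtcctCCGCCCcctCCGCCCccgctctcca
The Itgb5 window held 3 GC boxes, the Lamb1 window 2 GC boxes and 1 CCAAT box, and the other windows neither. RefSeq promoters were found for 20 of the 32 genes, and a GC box stood in the 250 upstream bases of 10 of them and a CCAAT box in those of 5, against 32.7% and 33.9% of 32851 mouse promoters. A gene with more than 1 RefSeq start was counted if any of its windows held the motif, and Tinagl1 was counted for a GC box through its second start, which lies inside the gene and is not shown. By window, 11 of 22 held a GC box. An octamer (ATGCAAAT), the core to which Oct4 binds, was in none of the 20 and in 1.6% of all promoters, a GATA box (AGATAA) was in 1 of the 20 (Itgb3bp) and in 9.99% of all, and a TATA box (TATAAA) in none and in 12.4%. These are letters in a window and no measure of binding. Col4a1 and Col4a2 start head to head on chromosome 8, at 11312826 on the minus and 11312805 on the plus strand, so that their annotated starts share 22 bases.

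Between morula and early ICM in Ctrl embryos, more of the basement membrane genes rose than fell. In the Oct4 line, 12 of the 32 genes were called higher in early ICM (adjusted p under 0.05 and a change of at least 1 on the log2 scale) and 7 lower, against 14.1% and 14.9% of all 14053 genes tested. In the Sox2 line, 13 were called higher and 6 lower, against 17.2% and 14.7%. Genes called higher in both lines included Lama1, Lama3, Lama5, Lamb1, Lamc1, Col4a1, Col4a2, Sparc, Fn1, Itga6 and Itga11, and Itga5 was called higher in the Sox2 line. With limma on rlog values Lama3 was under the fold minimum in the Oct4 (0.74) and Sox2 lines (0.99), as was Itga6 in the Sox2 line (0.75). The genes called lower in both lines were Tinagl1, Nid2, Lamb2, Itgae, Itgb4 and Itga7, and Itgb5 was called lower in the Oct4 line. The median change of the 32 genes was 0.50 in the Oct4 line and 0.64 in the Sox2 line, beside 0 and 0.03 over all genes. Markers of the cell types moved across the same step. Of 13 epiblast and ICM genes, 11 were called higher in the Oct4 and 7 in the Sox2 line and 0 lower, and their sums were 1111 to 1514 CPM in Oct4 Ctrl morulae and 2735 to 4242 CPM in early ICMs. Of 15 trophectoderm genes, 2 were higher and 4 lower in the Oct4 line and 1 higher and 8 lower in the Sox2 line, where their sums were 1045 to 1473 CPM in morulae and 244 to 800.2 CPM in early ICMs. Of 12 primitive endoderm genes tested, 4 were higher and 4 lower in the Oct4 line and 5 and 3 in the Sox2 line. The part of these cell types in the stage differences was not tested.

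**Figure D1:**
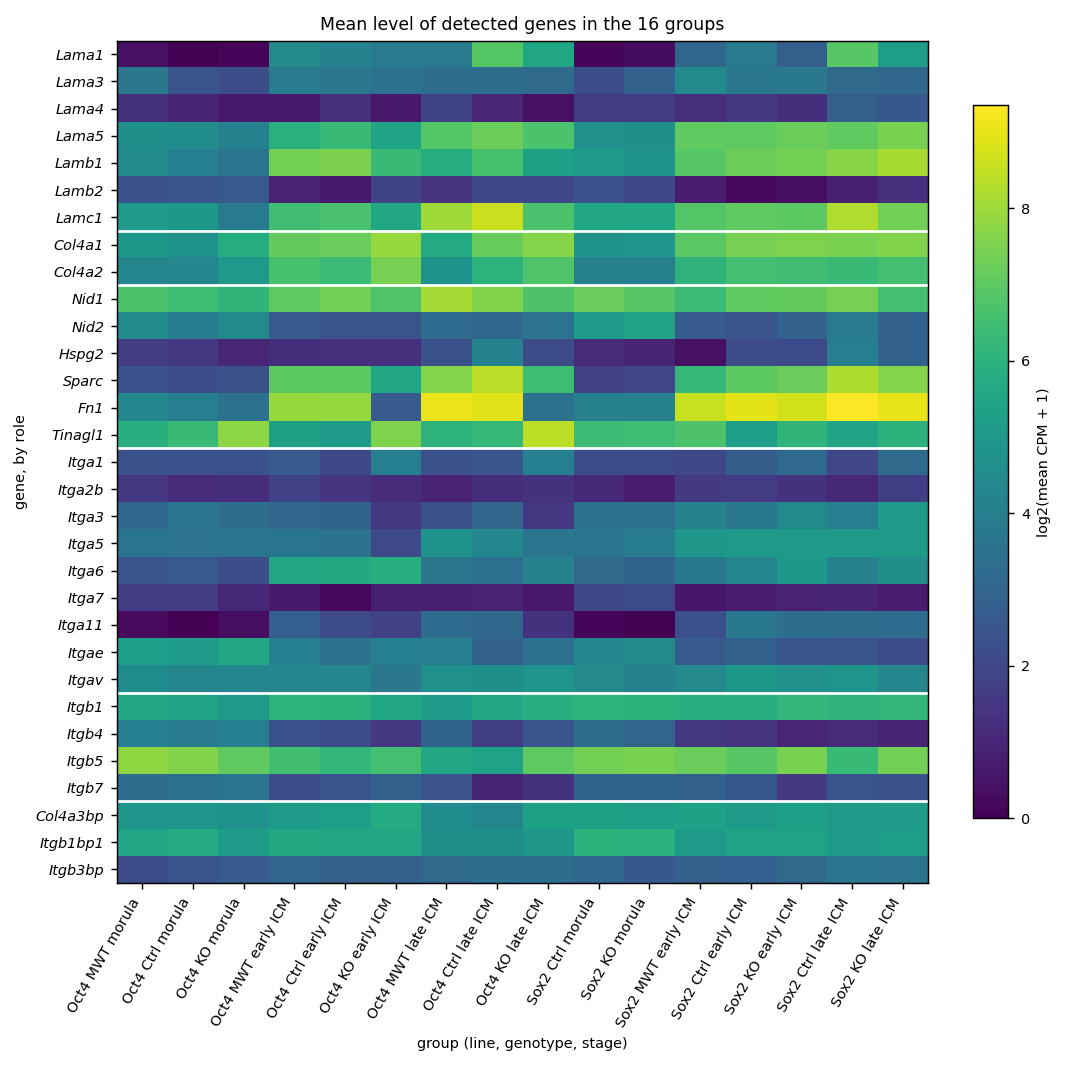
Mean level of the genes reported here (rows, ordered by role and separated by white lines) in each of the 16 groups (columns, by line, stage and genotype), coloured by log2(mean CPM + 1). Lama1, Sparc and Itga11 were lowest in morulae, Fn1 was lowest in Oct4-KO early ICM, and Tinagl1 was highest in Oct4-KO late ICM.

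Lama1, the laminin α chain of laminin-111, had 0 UMIs in the 8 Oct4 Ctrl morulae and 1 UMI in the 8 Sox2 Ctrl morulae. In Oct4 Ctrl early ICMs it ran from 2.42 to 37.6 CPM (median 13.2), at least 43.9-fold above the floor of 3 UMIs over the morula group. In Oct4 Ctrl late ICMs it ran from 19.8 to 352 CPM (median 68.0), a further rise of 2.78 ± 0.61 (log2, SE), and in Sox2 Ctrl late ICMs from 9.35 to 469 CPM (median 49.3). Every early ICM lay above every morula in both lines, and the late ICMs overlapped the early ones. Its partner chain Lamb1 rose from 7.50 to 29.9 CPM in Oct4 Ctrl morulae to 126 to 237 CPM in early ICMs (3.53 ± 0.33), and Lamc1 rose at both steps, by 1.71 ± 0.33 to early ICM and by 1.93 ± 0.30 to late ICM. The chains of laminin-111 thus differed in their counts in morulae: Lamb1 and Lamc1 were counted and Lama1 was at 0 or 1 UMI per group of Ctrl morulae. These counts do not show when transcription of each chain began. Lama5, the α chain of laminin-511, was counted in every embryo and rose from a median of 17.5 CPM in Oct4 Ctrl morulae to 83.1 in early and 137 in late ICMs.

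Among the other matrix genes, Sparc, a collagen-binding glycoprotein, went from a median of 2.43 CPM in Oct4 Ctrl morulae to 114 in early and 265 in late ICMs, and from 2.09 to 106 and 240 in the Sox2 line. Fn1, fibronectin, went from a median of 13.7 CPM to 214 and 477 in the Oct4 line and from 17.5 to 401 and 677 in the Sox2 line. For both genes no early ICM overlapped a morula in either line. Col4a1, the collagen IV α1 chain, went from a median of 23.4 CPM in Oct4 Ctrl morulae to 150 in early ICMs and stood at 122 in late ICMs, with a difference of -0.03 ± 0.25 between the ICM stages. Tinagl1, a secreted matrix protein related to tubulointerstitial nephritis antigen, went the other way, from a median of 80.6 CPM in Oct4 Ctrl morulae to 32.1 in early ICMs (-1.20 ± 0.36). That difference was under the fold minimum with thinned counts (-0.98) and with limma on rlog values (-0.93).

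Integrin chains divided by stage. Itga6, the α chain of the laminin receptors, rose in Oct4 Ctrl embryos from a median of 4.34 CPM in morulae to 49.7 in early ICMs and then fell to 10.0 in late ICMs, with no overlap between neighbouring stages (3.22 ± 0.32 and -2.41 ± 0.31). In Sox2 Ctrl embryos the medians were 6.71, 14.7 and 15.7 CPM, and the early and late ICMs were not called different. Itgb4, which pairs with Itga6, fell from 7.74 to 20.9 CPM in Oct4 Ctrl morulae to 2.24 to 4.30 CPM in early ICMs. Itgb1, the common β chain, was counted in every embryo, and its group means lay between 32.8 and 71.7 CPM over all 16 groups. Itgb5, which pairs with Itgav, fell in Oct4 Ctrl embryos from a median of 188 CPM in morulae to 70.9 in early and 40.7 in late ICMs, and in Sox2 Ctrl embryos from 173 to 121 and 81.6. Itgae, an α chain that pairs with Itgb7, fell from a median of 31.2 to 9.22 CPM between Oct4 Ctrl morulae and early ICMs.

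Between early and late ICM, 7 genes were called higher in Oct4 Ctrl embryos (Lama1, Lamc1, Lamb2, Sparc, Fn1, Hspg2 and Tinagl1) and 2 lower (Itga6 and Itgb7), against 9.52% and 6.04% of all genes. In Sox2 Ctrl embryos 5 were called higher (Lama1, Lamc1, Sparc, Hspg2 and Nid2) and 0 lower, against 1.94% and 0.961%; at unadjusted p under 0.05 there were 9 of the 32 in either direction. Without the late ICMs with Sox7, 4 genes were called in the Oct4 line (Lamc1 1.52 and Lama1 1.76 higher, Itga6 -2.08 and Lamb1 -1.65 lower, Lamb1 being newly called) and 0 in the Sox2 line, where the 5 genes stood at 1.20 (Lama1), 0.90 (Nid2), 0.71 (Sparc), 0.40 (Lamc1) and -0.14 (Hspg2), with adjusted p values of 0.26 or more, beside 3.15, 1.56, 1.20, 1.17 and 2.04 with all embryos. In the Oct4 line Fn1 and Sparc were then just under the fold minimum, at 0.99 (adjusted p = 0.000801) and 0.92 (0.0249), beside 1.06 and 1.43 with all embryos. Tinagl1 stood at 0.94 and Hspg2 at 0.93, beside 1.10 and 3.48, with adjusted p values of 0.0715 and 0.39. Lamb2 (1.82, adjusted p = 0.0771) and Itgb7 (-2.29, adjusted p = 0.0512) kept changes beyond the fold minimum but were not called. Shares of all genes without these embryos are not given for this step, so the lost calls cannot be set against those over all genes.

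The plot against Sox7 shows this per embryo. The highest Lama1 level in Oct4 Ctrl late ICMs, 352 CPM, was in embryo 1-9 with 17 Sox7 UMIs, and the highest in Sox2 Ctrl late ICMs, 469 CPM, was in embryo 2-6 with 48 Sox7 UMIs. The highest in Sox2-KO late ICMs, 202 CPM, was in embryo 2-6 with 9 Sox7 UMIs, and the next embryo of that group held 29.0 CPM. Hspg2, perlecan, reached 69.0, 62.5 and 27.6 CPM in the same 3 embryos, while its group medians were 3.80, 7.21 and 4.59 CPM. Lamc1 (723, 764 and 431 CPM) and Sparc (809, 611 and 482 CPM) were also the highest of their groups in these embryos.

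**Figure D2:**
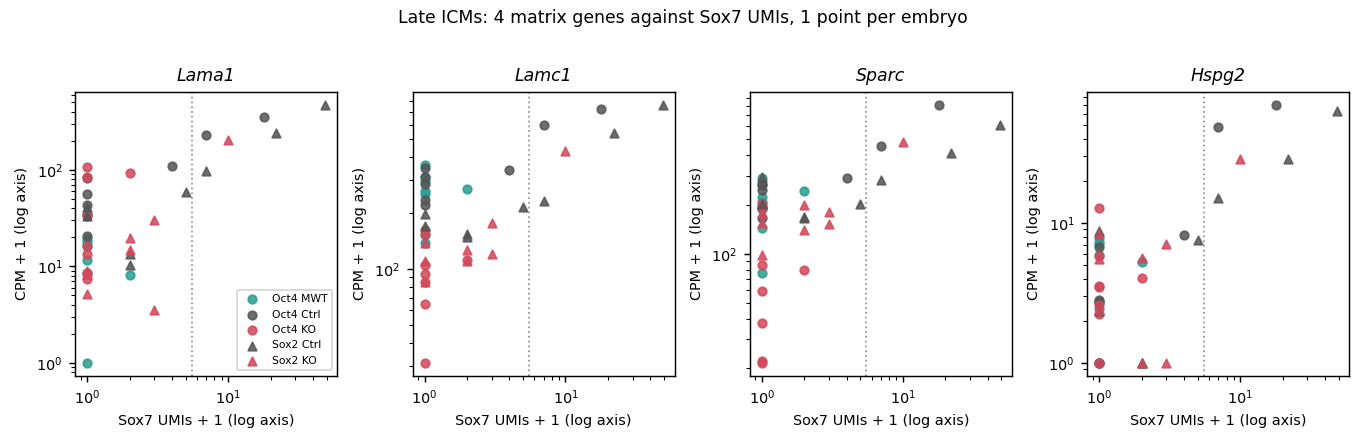
Levels of Lama1, Lamc1, Sparc and Hspg2 (CPM + 1, log axis) against Sox7 UMIs + 1 (log axis) in the 40 late ICMs, 1 point per embryo. Circles are Oct4-line and triangles Sox2-line embryos, coloured by genotype, and points right of the dotted line are the 6 embryos with at least 5 Sox7 UMIs, 5 of which hold the 5 highest levels of each gene.

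Loss of Oct4 changed few of these genes in morulae. Of the 32 genes, 2 were called higher (Tinagl1 and Col4a1) and 0 lower in Oct4-KO morulae, against 0.178% and 0.626% of all genes, and 6 had an unadjusted p under 0.05. Tinagl1 ran from 120 to 333 CPM (median 214) in KO and from 13.7 to 136 CPM (median 80.6) in Ctrl morulae, a difference of 1.47 ± 0.33 (adjusted p = 0.00495). The 2 lowest KO embryos lay below the highest Ctrl embryo, and the groups were otherwise apart. Col4a1 ran from 23.0 to 78.9 CPM (median 57.3) against 14.7 to 44.8 CPM (median 23.4), a difference of 1.05 ± 0.29 (adjusted p = 0.0439) that was not called under 5 of the alternatives, among them DESeq2 size factors (adjusted p = 0.0517) and thinned counts (adjusted p = 0.155). Lamc1 was at a median of 13.3 CPM in KO against 31.96 in Ctrl morulae and did not pass (-1.13 ± 0.39, adjusted p = 0.13), but was called by DESeq2 (adjusted p = 0.0414).

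In the ICM the set split by gene: fibronectin, Lamb1, Lamc1, Sparc and some integrin α chains were lower without Oct4, and Tinagl1, Itga1, Col4a2 and Itgb5 were higher. In Oct4-KO early ICMs 4 genes were called higher and 6 lower, against 4.77% and 6.11% of all genes, with a median change over the 32 genes of -0.24 beside 0.01 over all genes. In Oct4-KO late ICMs 4 were called higher and 8 lower, against 9.25% and 8.85%, with a median of -0.04 beside -0.01. The embryos with Sox7 again bore on the late count: without them 5 genes were called higher and 5 lower, against 8.88% and 8.48% of all genes. Of those 10 genes, 9 were among the 12 called with all embryos.

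**Figure D3:**
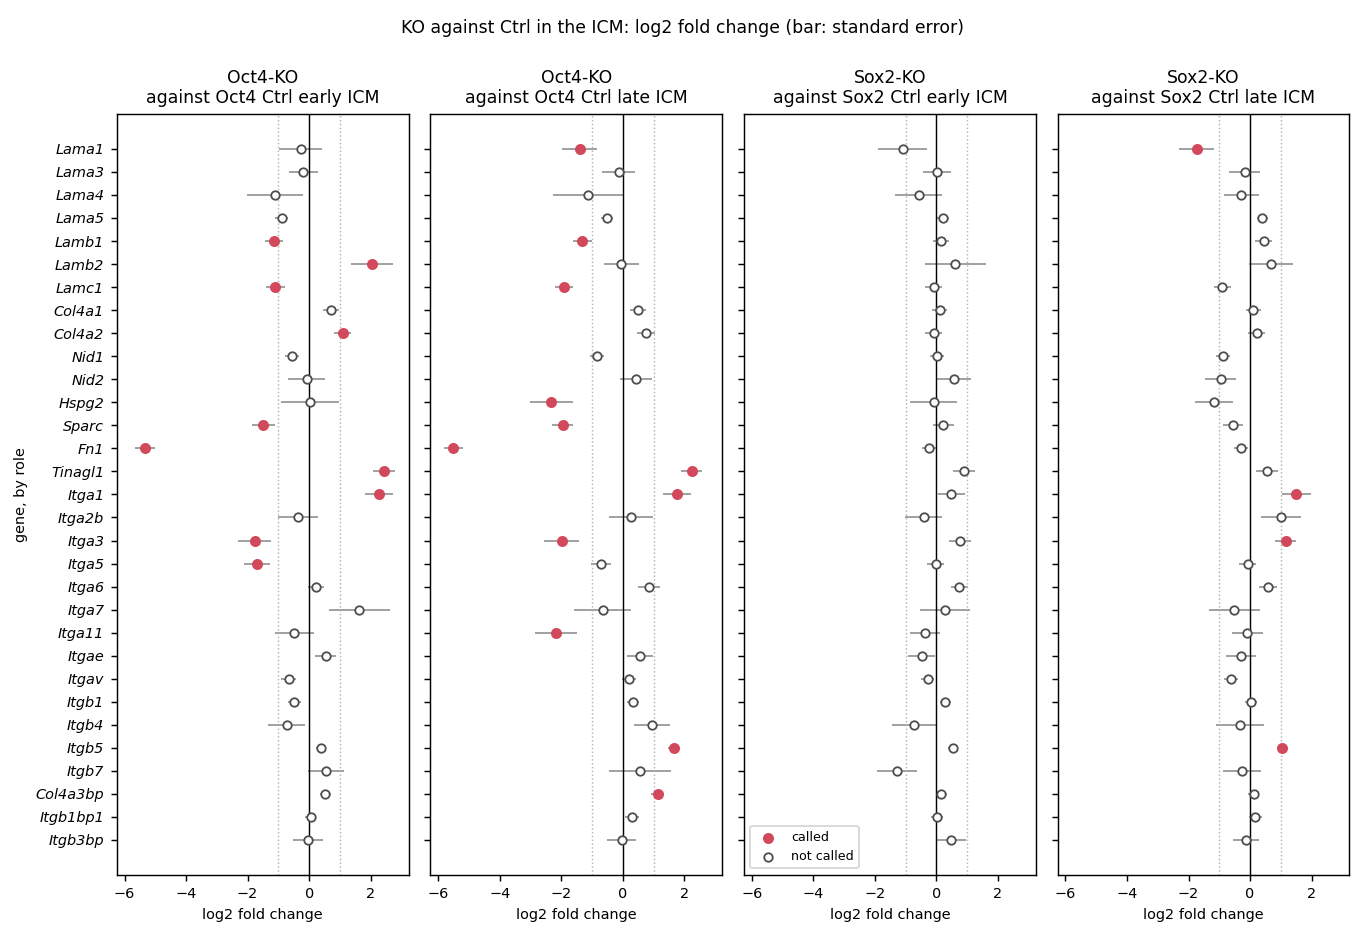
Log2 fold change of KO over Ctrl (x axis, bars are standard errors) for the genes reported here (y axis, ordered by role) in early and late ICM of the Oct4 and Sox2 lines. Filled points were called, and dotted lines mark -1 and 1. Fn1 stands farthest left in both Oct4-KO panels and near 0 in both Sox2-KO panels, and Tinagl1 and Itga1 stand farthest right in Oct4-KO early ICM.

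Fn1 (ENSMUSG00000026193, mm10 chr1:71585520-71653200, minus strand) carried the largest change among the 32 genes. In early ICMs it ran from 141 to 369 CPM (median 214) in Oct4 Ctrl and from 1.21 to 11.4 CPM (median 5.22) in Oct4-KO embryos, a difference of -5.34 ± 0.32 (adjusted p = 6.1e-26). In late ICMs it ran from 363.5 to 654 CPM (median 477) in Ctrl and from 4.60 to 14.02 CPM (median 11.3) in KO, a difference of -5.51 ± 0.31 (adjusted p = 2.3e-28). The groups did not overlap at either stage, and the KO level in ICMs was of the order of the level in Ctrl morulae, 6.73 to 26.9 CPM. By summed UMIs the KO early ICMs held 39 against 1665 UMIs, or 2.4% of the Ctrl rate (95% interval 1.7 to 3.3%), and the late ICMs 59 against 2591, or 2.14% (1.62 to 2.77%), intervals that cover counting error only. Without the embryos with Sox7 the late difference was -5.45. Fn1 overlaps Apol7d on the opposite strand, and whether the authors counted by strand was not stated.

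Among the laminin chains, Lamb1 and Lamc1 were lower and Lama1 depended on few embryos. Lamb1 ran from 126 to 237 CPM (median 165) in Oct4 Ctrl and from 32.1 to 118 CPM (median 87.5) in Oct4-KO early ICMs, without overlap (-1.14 ± 0.28, adjusted p = 0.00136). In late ICMs Lamb1 ran from 17.4 to 227 CPM against 19.05 to 75.1 CPM (-1.32 ± 0.31), and without the embryos with Sox7 the difference was -0.51 and was not called. Lamc1 was at medians of 78.6 in Ctrl and 44.4 CPM in KO early ICMs (-1.10 ± 0.31, adjusted p = 0.00618), a change that was -0.95 and under the fold minimum with thinned counts. In late ICMs Lamc1 ran from 220 to 723 CPM (median 327) in Ctrl and from 30.2 to 161 CPM (median 98.2) in KO (-1.92 ± 0.30, adjusted p = 1.3e-07), with no overlap, and without the embryos with Sox7 the difference was -1.52 and was still called. Lama1 ran from 19.8 to 352 CPM (median 68.0) in Ctrl and from 6.35 to 106 CPM (median 23.9) in KO late ICMs (-1.40 ± 0.57, adjusted p = 0.0475). That call was lost without the embryos with Sox7 (-0.38, adjusted p = 0.60) and with DESeq2 (adjusted p = 0.17), and in early ICMs Lama1 differed by -0.28 ± 0.69. Lama5 was lower by less than the fold minimum at both stages, with medians of 83.1 and 41.6 CPM in Ctrl and KO early ICMs (-0.90 ± 0.21, adjusted p = 0.000685) and a difference of -0.52 ± 0.20 in late ICMs, or -0.50 without the embryos with Sox7. Lamb2, which takes the place of Lamb1 in other laminins, was called higher in early ICMs at low counts, 19 UMIs in KO against 4 in Ctrl embryos. Lama3 and Lama4 were not called in Oct4-KO embryos at any stage.

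**Figure D4:**
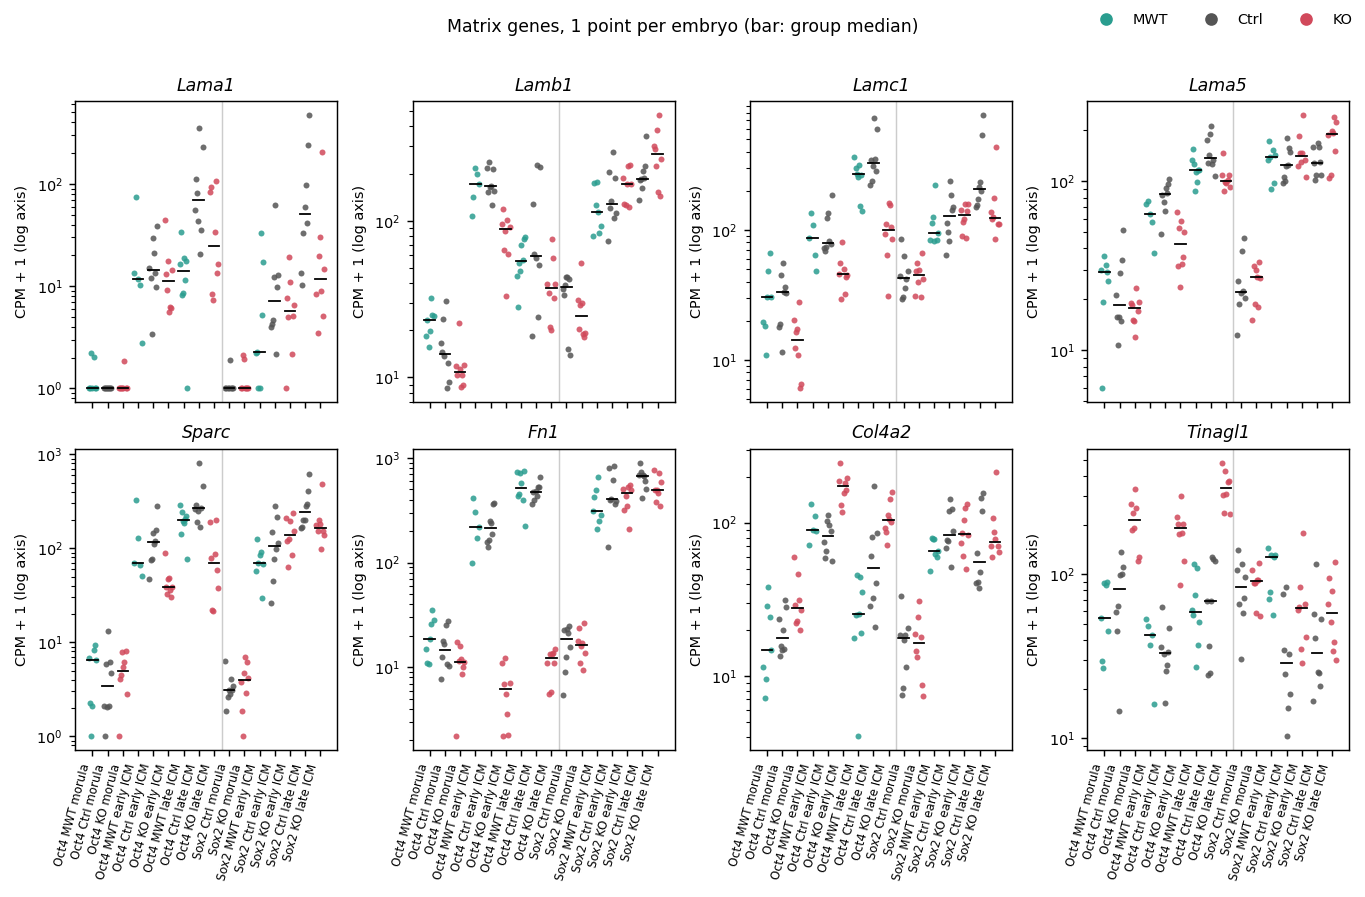
Levels of 8 matrix genes (CPM + 1, log axis) in every embryo of the 16 groups, ordered by line, stage and genotype; points are embryos, coloured by genotype, bars are group medians, and a grey line separates the lines. Fn1 and Lamc1 of Oct4-KO late ICMs lie below all Ctrl late ICMs, and Tinagl1 lies above them.

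Sparc was lower in the absence of Oct4 at both ICM stages. In early ICMs it ran from 45.7 to 281 CPM (median 114) in Ctrl and from 29.4 to 89.0 CPM (median 37.7) in KO (-1.49 ± 0.37, adjusted p = 0.00131), and in late ICMs from 166 to 809 CPM (median 265) against 20.6 to 200.1 CPM (median 68.2; -1.96 ± 0.35, adjusted p = 4.2e-06). Every KO embryo was under the median of Ctrl in both ICM stages, and without the embryos with Sox7 the late difference was -1.46. Hspg2 was called lower in late ICMs (-2.33 ± 0.70), but the difference was 0.21 without those embryos. Nid1, the nidogen that links laminin to collagen IV, was at medians of 182 and 70.1 CPM in Ctrl and KO late ICMs (-0.85 ± 0.23, adjusted p = 0.002), below the fold minimum, and Nid2 was not called (0.43 ± 0.52). These differences were -0.997 and 0.52 without the embryos with Sox7.

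Of the collagen IV chains, Col4a2 was called higher in early ICMs and Col4a1 was not called at either ICM stage. Col4a2 ran from 54.8 to 111 CPM (median 80.8) in Oct4 Ctrl and from 116 to 245 CPM (median 172) in Oct4-KO early ICMs, without overlap (1.08 ± 0.27, adjusted p = 0.00177). Col4a1 ran from 87.0 to 194 CPM against 178 to 333 CPM (0.71 ± 0.25, adjusted p = 0.0301), so that all 8 KO embryos lay above the Ctrl median but the change was below the fold minimum. In late ICMs the differences were 0.49 ± 0.26 for Col4a1 and 0.75 ± 0.29 for Col4a2. Without the embryos with Sox7 they were 0.94 (adjusted p = 0.00222), still under the fold minimum, and 1.34, which was called.

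Tinagl1 (ENSMUSG00000028776, mm10 chr4:130164454-130175122, minus strand) was higher at every stage in Oct4-KO embryos. It ran from 15.3 to 62.5 CPM (median 32.1) in Ctrl and from 84.8 to 300.1 CPM (median 191) in KO early ICMs (2.44 ± 0.36, adjusted p = 6.6e-08). In late ICMs it ran from 23.1 to 126 CPM (median 67.8) in Ctrl and from 234.5 to 480.3 CPM (median 337) in KO (2.24 ± 0.34, adjusted p = 8.6e-08). The groups did not overlap in either ICM stage, and the late difference was 2.39 without the embryos with Sox7.

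Integrin α chains changed in both directions. Itga1, which forms a collagen receptor with Itgb1, ran from 0 to 5.48 CPM in Ctrl and from 7.03 to 25.5 CPM in Oct4-KO early ICMs, without overlap (2.27 ± 0.45, adjusted p = 5.2e-05). In late ICMs it ran from 1.41 to 8.67 CPM against 0 to 29.9 CPM (1.75 ± 0.45), with 7 of 8 KO embryos above the Ctrl median. The gene Pelo lies within Itga1 on the same strand, so molecules of either could have been counted for the other. Itga3, the α chain of a laminin receptor, was at medians of 6.59 and 1.18 CPM in Ctrl and KO early ICMs (-1.77 ± 0.53, adjusted p = 0.00937) and 8.04 and 2.17 CPM in late ICMs (-1.99 ± 0.58, adjusted p = 0.00435). Thinning all embryos to the lowest total ended the early call of Itga3 (-1.60, adjusted p = 0.0814), and with limma on rlog values both differences were under the fold minimum (-0.77 and -0.78). Itga5, the α chain of the fibronectin receptor, was at medians of 10.2 and 3.33 CPM in early ICMs (-1.69 ± 0.42, adjusted p = 0.0017) and differed by -0.71 ± 0.34 (adjusted p = 0.0986) in late ICMs. The early difference of Itga5 was -0.87 with limma on rlog values, under the fold minimum. Itga11, another collagen receptor chain, was called lower in late ICMs, with medians of 6.17 and 0.62 CPM (-2.17 ± 0.68, adjusted p = 0.0098). Itga6, at medians of 49.7 and 61.3 CPM in Ctrl and KO early ICMs, was not called (0.21, 95% interval -0.28 to 0.71). The late calls of Itga1, Itga3 and Itga11 held without the embryos with Sox7, at 1.49, -1.85 and -2.39.

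Among the β chains Itgb5 (ENSMUSG00000022817, mm10 chr16:33829665-33949338, plus strand) alone was called. It ran from 27.0 to 54.9 CPM (median 40.7) in Ctrl and from 48.9 to 190.3 CPM (median 139) in Oct4-KO late ICMs (1.66 ± 0.18, adjusted p = 1.1e-12), where all but the lowest KO embryo lay above every Ctrl embryo, and the difference was 1.76 without the embryos with Sox7. In early ICMs the difference was 0.38 ± 0.17 and in morulae -0.49 ± 0.16, neither of which passed. Itgb1 differed by -0.48 ± 0.20 (adjusted p = 0.07) in early and 0.33 in late ICMs (95% interval -0.07 to 0.73), and its partner chains Itga1, Itga3 and Itga5 thus moved while Itgb1 did not pass the test. Itgb4 and Itgb7 were not called. Of the genes matched by symbol only, Col4a3bp was called higher in Oct4-KO late ICMs (medians 17.6 and 33.7 CPM, 1.13 ± 0.21), and Itgb1bp1 and Itgb3bp were not called. With limma on rlog values the difference of Col4a3bp was 0.84, under the fold minimum.

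**Figure D5:**
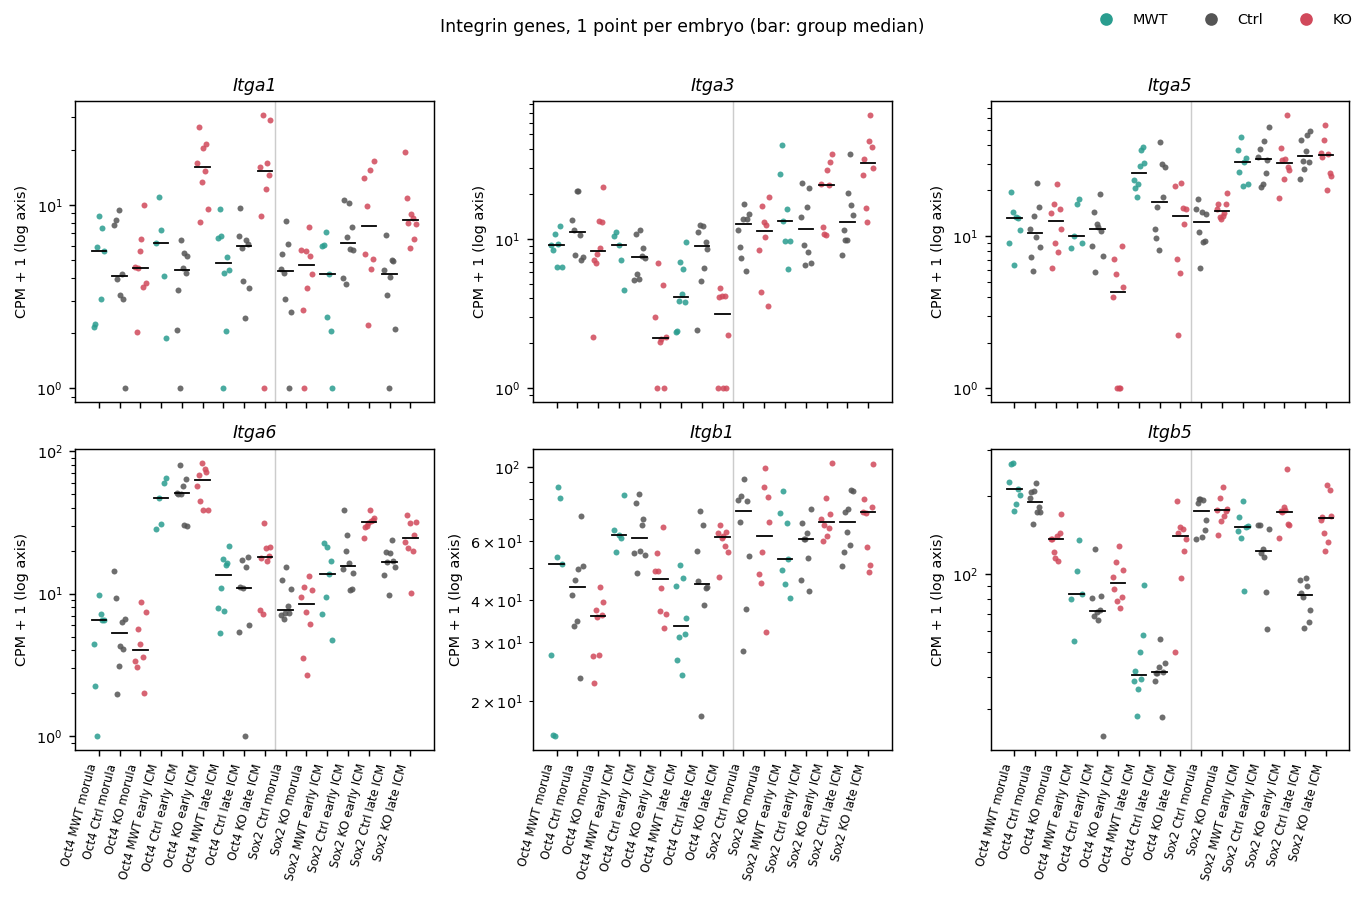
Levels of 6 integrin genes (CPM + 1, log axis) in every embryo of the 16 groups, ordered by line, stage and genotype; points are embryos, coloured by genotype, and bars are group medians. Itga1 of Oct4-KO early ICMs lies above all Ctrl early ICMs, Itgb5 of Sox2-KO late ICMs above all Sox2 Ctrl late ICMs, and Itgb1 of KO and Ctrl embryos overlaps at each stage.

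Markers of other cell types moved with these results. Over all genes, 9.25% were called higher and 8.85% lower in Oct4-KO late ICMs, and 4.77% and 6.11% in early ICMs. Of 15 trophectoderm genes, 10 were called higher and 0 lower in late ICMs, with or without the embryos with Sox7, and their summed level ran from 561 to 1739 CPM in Ctrl and from 2469 to 5133 CPM in KO embryos, with Dlx3 at 0 in Ctrl. In early ICMs 3 were higher and 1 lower, with sums of 517 to 1851 and 1018 to 1958 CPM and Dlx3 at 0 in both groups. Of 12 primitive endoderm genes tested, none of which is a matrix gene, 4 were called higher and 4 lower in late ICMs, and the sums over all 15 genes of the list were 369 to 1324 CPM in Ctrl and 1188 to 2163 CPM in KO, with Ttr at 0 in both. In early ICMs 3 of the 12 were called higher and 3 lower, and in late ICMs without the embryos with Sox7 5 higher and 3 lower. Sox17, a transcription factor that primitive endoderm requires, was called lower at both stages. It ran from 1.45 to 404 CPM (median 10.7) in Ctrl and from 0 to 6.35 CPM (median 0) in KO late ICMs, and the highest Ctrl level was 95.4 CPM without the embryos with Sox7. In early ICMs it ran from 0 to 18.6 CPM and from 0 to 1.17 CPM. Gata6 was at 180.4 and 423 CPM in late ICMs (1.25). Of 13 epiblast and ICM genes, among them the deleted Pou5f1 itself, 12 were called lower in late ICMs, or 11 without the embryos with Sox7, and 9 in early ICMs. Genes of cumulus and blood cells summed to at most 8.37 CPM in any embryo. The part of these cell types in the changes above was not tested.

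Other genes of the pathway changed one by one. Among 16 genes for matrix processing, 1 was called higher and 2 lower in Oct4-KO early ICMs and 2 higher and 4 lower in late ICMs, where all genes tested gave 4.77% and 6.11% early and 9.25% and 8.85% late. Without the embryos with Sox7 the late counts were 3 and 3, against 8.88% and 8.48%, and Serpinh1, the collagen chaperone, was the gene no longer called (-0.17). P4hb, a subunit of collagen prolyl 4-hydroxylase, was at 593 CPM in KO against 216 CPM in Ctrl late ICMs (1.47 ± 0.16), and Plod2, a lysyl hydroxylase, at 21.7 against 71.7 CPM (-1.66 ± 0.46). Among 23 other matrix proteins and matrix receptors, 1 was higher and 4 lower in late ICMs, and 1 each in early ICMs. The late counts were 4 and 4 without the embryos with Sox7, with 3 genes newly called higher. Sdc4, a syndecan that acts with integrins, was at 620.2 against 161 CPM (1.97 ± 0.25), and Ddr2, a receptor for fibrillar collagen, at 36.0 against 143 CPM (-1.95 ± 0.31). Among 25 integrin adaptors, 4 were higher and 2 lower in late ICMs, and in early ICMs 0 were higher and 1 lower, against the same shares of all genes, and the late counts were again 4 and 2, with 1 gene exchanged, without the embryos with Sox7. The median change of the adaptors was 0.06 in early and -0.01 in late ICMs, beside 0.01 and -0.01 over all genes. Actn4 and Actn1, α-actinins that link integrins to actin, moved in opposite directions, at 1217 against 596 CPM (1.04 ± 0.15) and 30.5 against 96.3 CPM (-1.62 ± 0.22). Zyx, zyxin, was at 457 against 225.5 CPM (1.04 ± 0.22), or 0.98 and under the fold minimum without the embryos with Sox7, and Vcl, vinculin, was lower in early ICMs at 18.4 against 49.9 CPM (-1.42 ± 0.28).

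In Sox2-KO embryos few genes of the set passed the test. In morulae 0 of the 32 genes were called by edgeR, against 0.00712% of all genes in either direction, and 0 had an unadjusted p under 0.05. In early ICMs 0 were called, against 3.27%, and 4 had an unadjusted p under 0.05 (Itga3, Itga6, Itgb5 and Tinagl1, all higher in KO). DESeq2 called 0 of the 32 at both stages. In late ICMs 3 were called higher and 1 lower, against 3.34% and 3.61%, with a median change of -0.09 beside 0 over all genes.

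Itgb5 was the clearest of these. In late ICMs it ran from 60.7 to 95.1 CPM (median 81.6) in Sox2 Ctrl and from 122 to 220 CPM (median 163) in Sox2-KO embryos, without overlap (1.05 ± 0.17, adjusted p = 7.9e-07). The change was close to the fold minimum, at 0.94 with library totals and 0.92 with thinned counts, and was 1.05 without the embryos with Sox7. In early ICMs the medians were 121 and 172 CPM (0.53 ± 0.16, adjusted p = 0.0247), with all 8 KO embryos above the Ctrl median. Itga3 was at medians of 11.9 and 31.3 CPM in Ctrl and KO late ICMs (1.16 ± 0.34, adjusted p = 0.0115), and Itga1 at 3.21 and 7.25 CPM (1.501 ± 0.48, adjusted p = 0.0222). All 8 KO embryos lay above the Ctrl median for each of these genes. Without the embryos with Sox7 the estimates were 1.01 and 1.46 and the adjusted p values 0.12 and 0.11. The call of Itga3 was also lost with thinned counts (1.06, adjusted p = 0.11) and, under the fold minimum, with limma on rlog values (0.90).

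Lama1 was called lower in Sox2-KO late ICMs, from 9.35 to 469 CPM (median 49.3) in Ctrl to 2.48 to 202 CPM (median 10.8) in KO (-1.73 ± 0.56, adjusted p = 0.026). That call was lost with DESeq2 (-1.74, adjusted p = 0.11), with the 2 groups fitted alone (-1.73, adjusted p = 0.14) and without the embryos with Sox7 (-1.35, adjusted p = 0.15). Nid1 ran from 138 to 212 CPM (median 167) in Ctrl and from 53.2 to 125 CPM (median 92.3) in KO, without overlap, and was below the fold minimum (-0.89 ± 0.23, adjusted p = 0.00311), as was Lamc1 (medians 206 and 122 CPM, -0.90 ± 0.29, adjusted p = 0.0219). Nid1 stood at -0.90 (adjusted p = 0.0151) and Lamc1 at -0.53 (0.24) without the embryos with Sox7. Fn1 ran from 417 to 897 CPM in Ctrl and from 343 to 764 CPM in KO late ICMs, a difference of -0.29 with a 95% interval of -0.72 to 0.14. Tinagl1 differed by 0.55 (-0.16 to 1.26), Sparc by -0.56 (-1.20 to 0.09) and Lamb1 by 0.44 (-0.08 to 0.97).

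Some trophectoderm genes were also called in Sox2-KO ICMs, where 1.57% of all genes were called higher and 1.69% lower in early and 3.34% and 3.61% in late ICMs. Of 15, 6 were called higher and 1 lower in early ICMs, with sums of 244 to 800.2 CPM in Ctrl and 1203 to 2897 CPM in KO and Dlx3 at 0 in both, and 5 higher and 1 lower in late ICMs, with sums of 322 to 3681 and 1064 to 3460 CPM, which overlapped, and none at 0. The late counts were 4 and 0 without the embryos with Sox7, against 1.99% and 2.65% of all genes. Of 13 epiblast and ICM genes, the deleted Sox2 among them, 7 were lower and 0 higher at each ICM stage, with summed levels over the 14 genes listed of 2290 to 4696 CPM in Ctrl and 1919 to 2542 CPM in KO early ICMs. In late ICMs these ran from 3341 to 5159 and from 1946 to 3160 CPM. Of 12 primitive endoderm genes tested 2 were higher and 0 lower in early ICMs, and the sums over all 15 of the list were 344 to 1014 and 954 to 1214 CPM with Foxa2 and Ttr at 0 in both. In late ICMs 0 were called in either direction, with sums of 504 to 1549 and 717 to 1439 CPM. Of the 16 genes for matrix processing, 0 were called higher and 1 lower at each ICM stage. Of the 23 other matrix genes, 1 was higher and 1 lower in early ICMs and 2 higher and 2 lower in late ICMs, and of the 25 integrin adaptors 0 were called at either stage. Plod2 (-1.60 ± 0.46) and Ddr2 (-1.04 ± 0.30) were the genes lower in early ICMs. In late ICMs Serpinh1 was at 46.5 against 172 CPM (-1.86 ± 0.52), Spp1, osteopontin, at 241 against 890 CPM (-1.87 ± 0.60), and Fbln1, fibulin-1, at 62.5 against 29.7 CPM (1.09 ± 0.29). These were -2.31, -2.14 and 0.88 without the embryos with Sox7, the last no longer called, and the other matrix genes then gave 1 higher and 1 lower. The part of the trophectoderm genes in the changes of Itgb5, Itga3 and Itga1 was not tested.

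The difference between the lines was itself tested as an interaction. In early ICMs the KO effect was called higher in the Oct4 than in the Sox2 line for 2 genes and lower for 6, against 2.11% and 3.42% of all genes, and in late ICMs higher for 2 and lower for 4, against 2.81% and 3.49%. Fn1 differed by -5.10 ± 0.40 in early and -5.22 ± 0.38 in late ICMs. Itga3, lower in Oct4-KO and higher in Sox2-KO late ICMs, differed by -3.15 ± 0.67 (adjusted p = 0.000526), and by -2.87 without the embryos with Sox7. Tinagl1 differed by 1.54 ± 0.51 and 1.69 ± 0.50, Lamb1 by -1.29 ± 0.39 and -1.76 ± 0.41, and Sparc by -1.71 ± 0.50 and -1.40 ± 0.48. The other calls were Col4a2 (1.17 ± 0.39), Lama5 (-1.12 ± 0.28) and Itga5 (-1.66 ± 0.51) in early ICMs and Col4a3bp (1.01 ± 0.28) in late ICMs. Without the embryos with Sox7, 3 genes were called in late ICMs (Fn1, Itga3 and Tinagl1), a count for which the share of all genes is not given. The calls lost stood at -1.05 (Lamb1, adjusted p = 0.12), -1.06 (Sparc, 0.20) and 0.95 (Col4a3bp, 0.0593). Thinned counts ended the early calls of Itga3, Itga5, Tinagl1 and Col4a2 (adjusted p from 0.0633 to 0.17), with differences of -2.15, -1.91, 1.28 and 1.17, and the late call of Sparc, at an adjusted p of 0.0496, was lost with DESeq2 (0.11). Itgb5, called in late ICMs of both lines, differed between them by 0.61 ± 0.24 (adjusted p = 0.11), and Itga1 in early ICMs by 1.78 ± 0.63 (adjusted p = 0.0607).

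The effect of Oct4 loss also differed between stages for few genes. From morula to early ICM it changed for Fn1 (-4.79 ± 0.50), Itga5 (-1.81 ± 0.54) and Itga1 (2.26 ± 0.67), 3 genes against 3.29% of all genes in either direction. Thinned counts gave fewer calls for this step. From early to late ICM it changed for Itgb5 alone (1.28 ± 0.25, adjusted p = 0.000476), against 3.11%, and limma on rlog values called 0 genes. For Tinagl1 the change from morula to early ICM was 0.97 ± 0.48 and did not pass. In the Sox2 line 0 genes were called by edgeR for either step, against 0.882% and 0.0427%, with 2 and 3 of the 32 at an unadjusted p under 0.05, and DESeq2 called 0 for both steps.

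Embryos from mothers with an intact gene were compared with Ctrl last. In the Oct4 line 0 of the 32 genes were called by edgeR in morulae and 0 in early ICMs, against 0.0646% and 0.373% of all genes in either direction, with 1 and 0 genes at an unadjusted p under 0.05. The labels of these MWT early ICMs name a morula and no inhibitor, so the second comparison rests on their titles. DESeq2 also called 0 of them at both stages. In late ICMs 3 were called, all lower in MWT, against 0.797%. Lama1 ran from 0 to 32.6 CPM (median 12.9) in MWT and from 19.8 to 352 CPM (median 68.0) in Ctrl (-3.09 ± 0.64, adjusted p = 0.00202). Col4a1 was at medians of 53.7 and 122 CPM (-1.48 ± 0.28, adjusted p = 0.000595) and Col4a2 at 24.3 and 49.2 CPM (-1.29 ± 0.32, adjusted p = 0.0164). All 8 MWT embryos lay below the Ctrl median for each of these 3 genes. No MWT late ICM had 5 Sox7 UMIs. Without the Ctrl embryos with Sox7 the calls of Lama1 (-2.065, adjusted p = 0.0368) and Col4a1 (-1.02, adjusted p = 0.0303) remained. That of Col4a2 did not (-0.69, adjusted p = 0.30). With the 2 groups fitted alone, 1 of the 3 was called. Of the primitive endoderm genes, 0 of the 12 tested were called higher and 2 lower in these MWT embryos, with sums of 222 to 627 CPM in MWT and 369 to 1324 CPM in Ctrl and Ttr at 0 in both. Sox17 was at 0 to 5.58 CPM in MWT, against 1.45 to 404 CPM in Ctrl and up to 95.4 CPM in the Ctrl embryos outside the Sox7 division, and its part in these calls was not tested. Fn1, at medians of 512 and 477 CPM in MWT and Ctrl late ICMs, was not called. In Sox2 early ICMs 1 gene was called, against 2.58%: Tinagl1 was at a median of 127 CPM in MWT and 27.7 CPM in Ctrl embryos (1.52 ± 0.36, adjusted p = 0.00343). All 7 MWT embryos lay above the Ctrl median. Beside it, primitive endoderm genes summed to 1159 to 1732 CPM in MWT and 344 to 1014 CPM in Ctrl, without overlap and with Foxa2 and Ttr at 0 in both, and 2 of the 12 tested were called higher and 0 lower. Of the trophectoderm genes 1 was higher and 0 lower with sums that overlapped, and of the epiblast and ICM genes 1 was higher and 2 lower. The part of these cell types in the difference was not tested.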

How the data were processed

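Single-embryo RNA-seq of 123 mouse embryos was used. According to the methods of the study, the authors extracted UMIs with UMI-tools, trimmed reads with Cutadapt, aligned them to mm10 with TopHat2 and GENCODE vM23 annotation, and counted UMIs per gene with featureCounts and TRUmiCount; the deposited table holds these raw UMI counts, 525755 to 1344035 per embryo. The deposited log2 values are regularised log (rlog) values that the authors computed with DESeq2, used here only as an alternative. Whether counting used strand was not stated. Counting cuts precision for genes of few UMIs. Intervals for summed UMIs cover counting error only. Intervals for log2 differences rest on the standard error of the edgeR fit, which includes the spread between embryos.

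From the counts, genes with at least 1 UMI in 0.5 of the embryos of a stage were kept. edgeR 4.0.16 (R 4.3.3; TMM, quasi-likelihood test, Benjamini-Hochberg adjustment) was fitted to 12 groups of 96 embryos (14053 genes), and to all 16 groups (13923 genes) for MWT. A gene was called at adjusted p under 0.05 and an absolute log2 change of at least 1. Alternatives were DESeq2 1.42.0, its size factors, library totals, no filter, no fold minimum, counts thinned to 525755 UMIs, limma 3.58.1 on rlog values, other sets of embryos and replicate blocks. The scripts were tested on simulated data. Labels do not say whether embryos of a group shared a litter, or what the sets of late ICM labels stand for, so p-values measure the spread between embryos. A fit with the label set as a block was run for KO against Ctrl late ICMs. Its gene counts stayed near the main ones in both lines. Genes whose mean reached 20 CPM in any group are described by embryo and others by counts and by values where called; at most 3 genes of a companion list are named per comparison. An item withheld from the text is not reported here. The genes and lists were chosen with earlier results of these data known.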

Additional observations from a re-analysis of the deposited data

Results flagged for a closer look

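Within groups, 335 sets of 5 to 8 embryos were examined with Dixon's criterion, and in 36 of them the highest embryo stood apart from the rest and in 0 the lowest; with both ends examined, chance sets apart about 1 in 20 groups of normally distributed values, a rate that need not hold for CPM. The levels of Lama1 in Oct4-KO morula 7 and Sox2 Ctrl morula 14 are single UMIs in groups otherwise at 0, which the criterion sets apart in any case. Embryos are named by group and label number, with the next highest embryo of the group in parentheses.

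Among laminin chains, Lama1 reached 43 CPM in Oct4-KO early ICM 1 (next 16.6), 0.858 CPM in Oct4-KO morula 7 (next 0.0), 72.9 CPM in Oct4 MWT early ICM 3 (next 12.6), 61.7 CPM in Sox2 Ctrl early ICM 9 (next 11.7), 0.892 CPM in Sox2 Ctrl morula 14 (next 0.0) and 202 CPM in Sox2-KO late ICM 2-6 (next 29). Lama3 reached 12.1 CPM in Oct4 Ctrl morula 19 (next 5.61), 29.1 CPM in Oct4-KO late ICM 1-5 (next 14.9) and 12 CPM in Oct4-KO morula 7 (next 4.61). Lama5 reached 146 CPM in Oct4-KO late ICM 1-5 (next 108). Lamb1 reached 21.1 CPM in Oct4-KO morula 4 (next 11.1), 347 CPM in Sox2 Ctrl late ICM 2-6 (next 223) and 52.8 CPM in Sox2-KO morula 6 (next 30.0). Lamc1 reached 431 CPM in Sox2-KO late ICM 2-6 (next 175) and 222 CPM in Sox2 MWT early ICM 10 (next 125).

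Among collagen IV and linkers, Col4a1 reached 396 CPM in Sox2-KO late ICM 2-6 (next 195). Col4a2 reached 173 CPM in Oct4 Ctrl late ICM 1-9 (next 84.4) and 213 CPM in Sox2-KO late ICM 2-6 (next 106). Nid1 reached 147 CPM in Oct4 Ctrl morula 7 (next 103) and 205 CPM in Sox2-KO morula 6 (next 133). Nid2 reached 36.2 CPM in Oct4 MWT late ICM 4 (next 10.6) and 12.9 CPM in Sox2 Ctrl early ICM 4 (next 5.98).

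Among other matrix genes, Sparc reached 280.5 CPM in Oct4 Ctrl early ICM 9 (next 155), 809 CPM in Oct4 Ctrl late ICM 1-9 (next 453), 12.2 CPM in Oct4 Ctrl morula 15 (next 5.18), 89 CPM in Oct4-KO early ICM 1 (next 47) and 482 CPM in Sox2-KO late ICM 2-6 (next 196). Tinagl1 reached 115 CPM in Sox2 Ctrl late ICM 1-10 (next 56.1) and 177 CPM in Sox2-KO early ICM 11 (next 82.9).

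Among integrin chains and Col4a3bp, Itga3 reached 36.2 CPM in Sox2 Ctrl late ICM 2-3 (next 19.2). Itga5 reached 61.5 CPM in Sox2-KO early ICM 11 (next 37.3). Itgae reached 18.7 CPM in Oct4 Ctrl early ICM 6 (next 12.3) and 13.9 CPM in Sox2-KO late ICM 1-5 (next 3.67). Itgb5 reached 254 CPM in Sox2-KO early ICM 11 (next 179.8). Col4a3bp reached 47.8 CPM in Oct4 Ctrl early ICM 2 (next 37.6) and 68.3 CPM in Sox2 Ctrl morula 5 (next 41.4).

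The effect of KO differed by the interaction test in 18 cases, 14 of them between the lines. Taken as Oct4 minus Sox2 effect on the log2 scale, early ICMs gave Fn1 -5.10, Itga3 -2.54, Sparc -1.71, Itga5 -1.66, Lamb1 -1.29, Lama5 -1.12, Col4a2 1.17 and Tinagl1 1.54. Late ICMs gave Fn1 -5.22, Itga3 -3.15, Lamb1 -1.76, Sparc -1.40, Col4a3bp 1.01 and Tinagl1 1.69. Within the Oct4 line the effect changed from morula to early ICM for Fn1 (-4.79), Itga5 (-1.81) and Itga1 (2.26), and from early to late ICM for Itgb5 (1.28).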

How the results depend on the processing

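Of 2373 values for single genes under an alternative, 2272 kept their side of the threshold, 84 were no longer called, 13 became called and 4 reversed. A change of sign was counted as reversed only where the gene was called with or without the alternative. Genes called in neither fit count among the 2272 even where their sign changed. Counts of genes called in Oct4-KO morulae were 1 with all embryos, MWT included, DESeq2 size factors, library totals, thinned counts and limma. Limma gave 6 in Oct4-KO early ICMs, 6 in Oct4-KO late ICMs, 1 in Sox2-KO late ICMs, 2 between Sox2 Ctrl early and late ICMs and 0 for the Oct4 effect from early to late ICM. Thinned counts gave 1 in Sox2-KO late ICMs, 4 for the line difference in early ICMs and 1 for the Oct4 effect from morula to early ICM. Without a fold minimum, 1 was called in Sox2-KO early ICMs and 15 between Oct4 Ctrl early and late ICMs. With the groups fitted alone, 3 were called between Sox2 Ctrl early and late ICMs, 1 in Oct4 MWT late ICMs and 3 in Sox2 MWT early ICMs, where DESeq2 called 2. Without late ICMs with Sox7, an alternative chosen after seeing the data, 1 was called in Sox2-KO late ICMs, 4 between Oct4 Ctrl early and late ICMs, 0 between those of Sox2 Ctrl and 3 for the late line difference. Leaving out each Oct4 MWT early ICM in turn gave 0 each time. The causes were not tested, beyond the smaller number of embryos where embryos were left out.

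Replicate numbers were not taken to pair embryos, since not every pair of same-numbered embryos deviated together (correlations from -0.313 to 0.333). The correlation was above 0.1 in 3 of 4 pairs of Sox2-KO and Ctrl late ICMs. It was above 0.1 in 0 of 3 pairs of Oct4 Ctrl morulae and early ICMs. With 2 to 5 pairs in a comparison, whether same-numbered embryos share a litter cannot be told. The fit with the replicate number as a block, on the few embryos that share a number, gave 6 called in Oct4-KO early ICMs, 2 in Sox2-KO early ICMs, 2 in Sox2-KO late ICMs, 12 between Sox2 Ctrl morula and early ICM and 2 in Sox2 MWT early ICMs. The same embryos without the block gave 6 in Oct4-KO early ICMs, 0 in Sox2-KO late ICMs, 10 between Sox2 Ctrl morula and early ICM and 0 in Sox2 MWT early ICMs. In Oct4-KO early ICMs the replicate block gave Sparc 0.054 and Itgb1bp1 -1.27, and the same embryos unblocked 0.10 and -1.27, both reversed in sign. Depth limits genes of a few UMIs per embryo, such as Lamb2, Hspg2 and Itga11.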
